A study of Mus musculus with 6 samples.

Results

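*Kl* (klotho), a gene known from kidney, parathyroid and choroid plexus, was examined in the cochlea of control (WT) and *Cmah*-null mice together with genes known from the choroid plexus (*Ttr*, *Folr1*, *Clic6*, *Kcnj13*, *Otx2*, *Slc4a5*) and from the meninges (*Slc6a13*, *Slc13a4*, *Ptgds*). Probes were chosen by gene symbol, and 10 of the 25697 probes on the array belonged to 8 of the 10 genes, out of 18138 gene symbols in all. No probe carried the symbol *Kcnj13* or *Slc4a5*, and these 2 genes were not analysed here. The arrays held 3 samples of wild-type mice and 3 of mice that lack *Cmah*, the enzyme that makes the sialic acid Neu5Gc, all on a C57BL/6 background (C57BL/6J in the study's methods) and 12 months old, with no treatment named. The labels number the samples within a genotype and give neither sex nor whether a sample pools ears or mice, so errors and p-values measure only the spread between these samples. In bulk tissue, more cells of a type and more RNA per cell cannot be told apart.

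The choroid plexus is the epithelium in the ventricles of the brain that secretes cerebrospinal fluid, and the meninges are the membranes that wrap the brain. Klotho is a membrane protein that lets FGF receptors respond to the hormone FGF23, and its outer part can be cut off and released into blood and cerebrospinal fluid. The choroid plexus makes large amounts of transthyretin (*Ttr*), which carries thyroid hormone, and moves folate into the fluid through the folate receptor *Folr1*. The question was whether *Kl* followed the choroid plexus genes or the meningeal genes from array to array. These gene groups are not exclusive, since *Ptgds* is known from both tissues, so likeness to a single gene does not name a tissue. *Kl* was proposed for its higher signal in *Cmah*-null mice in these data, and the other members were picked with results of these data known, so their differences between genotypes are given as a description with no test.

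Signals are log2 values after quantile normalization, which gives each array the same distribution, and the highest value on any array was 16.04. Detection on an array meant a detection p below 0.05, and between 13873 and 15223 probes were detected per array. *Cmah*-null replicates 1 and 2 were the nearest pair of arrays. Their log2 difference had an SD of 0.138 over the 12410 probes detected on all 6 arrays, and the other pairs had 0.391 to 0.851. The labels do not say that these 2 samples came from separate mice, and if they did not, n = 3 is too high for *Cmah*-null mice and the standard errors too small. The probe for *Cmah* was near background, at 7.27, 7.28 and 7.87 in WT and 7.95, 7.98 and 7.27 in *Cmah*-null mice, and does not check the genotype. Genes that define cochlear tissue were present in part. Of 15 measured genes on a list of such markers, 10 were detected on all arrays, with *Coch*, a matrix protein of the spiral ligament, at 10.40 to 12.48. The hair cell genes *Slc26a5*, the motor protein prestin, and *Pou4f3*, a transcription factor, were detected on none, while *Otof* (7.79 to 8.73) and *Myo7a* (8.13 to 8.44), also of hair cells, were detected on all.

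*Kl* was measured by 2 probes of 50 bases that start 398 bases apart in the same transcript, at bases 4429 and 4827, and *Folr1* by 2 probes at bases 580 and 913. Their first 30 bases are shown because the 2 *Kl* probes gave different signals. Capitals mark the stretch of 12 bases that occurs, on either strand, in the most promoter sequences of a RefSeq table (GRCm38.p6).
Kl, probe at 4429: ggtcacagcacaTAGCTCATCACCctgtta
Kl, probe at 4827: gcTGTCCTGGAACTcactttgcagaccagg
Folr1, probe at 580: cacgaacacaAGCCAGGAAGCAcataagga
Folr1, probe at 913: caCCTTCTACTTCCccacatctgctgctct
The stretch TAGCTCATCACC of the first *Kl* probe was in 3 of 32851 promoter sequences (0.00913%). TGTCCTGGAACT of the second was in 59 (0.18%). The stretch of each *Folr1* probe was in 14 (0.0426%), which lies between the 2 *Kl* probes. These counts describe how common the letters are and say nothing on what a probe bound.

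The *Kl* probe at base 4429 (ILMN_1253148, band 5qG3) had log2 signals of 8.31, 8.86 and 7.76 on the WT arrays. The signals on the *Cmah*-null arrays were 9.95, 10.15 and 10.36. Each *Cmah*-null array was at least 1.08 above each WT array, and the probe was detected on all 6. The WT mean was 8.31 ± 0.55 (SD, n = 3) and the *Cmah*-null mean 10.15 ± 0.20 (SD, n = 3), a log2 difference of 1.84 (standard error 0.29) or 3.59-fold. With the background-correcting neqc normalization of the raw signals the log2 difference was 2.55. The spread between WT arrays was larger than that between *Cmah*-null arrays. In the raw signals the order within *Cmah*-null mice was different, at 1380, 1490 and 1130, with replicate 3 lowest. The place of replicate 3 as the highest *Kl* array is that of the quantile-normalized values. Each raw signal was a mean of 27 to 51 beads whose standard error was 2.89% to 5.81% of the signal, small beside the 2.14-fold span of the normalized WT values.

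The second *Kl* probe, at base 4827 (ILMN_2930843), was detected on no array. Its signals were 7.20, 7.10 and 7.32 in WT and 7.08, 7.17 and 7.39 in *Cmah*-null mice. The groups overlapped, and no fold is given for a probe at background in both. The difference in *Kl* therefore rests on 1 probe. Neither label nor header says which *Kl* transcript forms were present.

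*Ttr* (ILMN_2443330) had 14.30, 15.33 and 10.36 in WT and 15.56, 15.37 and 15.09 in *Cmah*-null mice. The groups overlapped, since WT replicate 2 was above *Cmah*-null replicate 3. WT replicate 3 stood 31.4-fold below WT replicate 2, while the bead error of the probe was at most 4.27%. The log2 difference was 2.01 (standard error 1.26) with that array and 0.53 without it. The order of the WT arrays was the same as for *Kl*, with replicate 2 highest and replicate 3 lowest. The normalized *Cmah*-null values ran the other way, with replicate 1 highest for *Ttr* and replicate 3 highest for *Kl*. In the raw signals *Cmah*-null replicate 3 was the lowest of its group for both genes. The *Cmah*-null values of *Ttr* were near 16.04, the highest on any array, with raw signals up to 62400. Whether a ceiling compressed them was not tested.

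*Folr1* was dim. The probe at base 913 (ILMN_3000679) was at 7.55, 7.67 and 7.24 in WT and at 8.56, 8.51 and 7.60 in *Cmah*-null mice, and was detected on 2 WT and 3 *Cmah*-null arrays. The probe at base 580 (ILMN_2707541) was at 7.37, 7.68 and 7.15 in WT and at 8.29, 8.20 and 7.48 in *Cmah*-null mice, and was detected on 1 WT and 2 *Cmah*-null arrays. Both probes gave the same picture, with *Cmah*-null replicates 1 and 2 above all WT arrays and replicate 3 within the WT range. Within WT both had the order of *Kl* and *Ttr*, with replicate 2 highest and replicate 3 lowest. Neither probe was detected on WT replicate 3. The log2 differences were 0.73 (standard error 0.29) and 0.59 (standard error 0.25), and 1.57 and 1.34 with neqc normalization. On the array where *Kl* was highest after normalization, *Folr1* was at the level of WT.

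*Clic6* (ILMN_2667635, band 16qC4), a chloride channel protein of the choroid plexus epithelium, was at 10.85, 11.30 and 11.56 in WT and at 12.43, 12.19 and 12.41 in *Cmah*-null mice. It did not overlap between the genotypes, and its log2 difference was 1.11 (standard error 0.19). Here WT replicate 3, the lowest array for *Kl*, was the highest of the WT arrays. *Otx2* (ILMN_2691752, band 14qC1), a homeobox factor that the choroid plexus needs to form, was at 9.32, 9.32 and 9.20 in WT and at 10.18, 10.20 and 9.73 in *Cmah*-null mice. Its groups did not overlap either, with a log2 difference of 0.76 (standard error 0.15), and *Cmah*-null replicate 3 was again the lowest of its group.

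Of the meningeal members, *Slc6a13* (ILMN_1212645, band 6qF1), a transporter of GABA and taurine, was the most even. Its signals were 10, 9.92 and 10.02 in WT and 10.37, 10.48 and 10.46 in *Cmah*-null mice, with SDs of 0.05 and 0.06. The log2 difference was 0.46 (standard error 0.07), or 1.37-fold, and *Slc6a13* showed none of the spread that *Kl* had within WT. *Slc13a4* (ILMN_2827072, band 6qB1), a sodium-sulfate cotransporter, was at 11.14, 11.29 and 11.26 in WT and at 11.99, 12.00 and 12.88 in *Cmah*-null mice. Its log2 difference was 1.06 (standard error 0.26), and as for *Kl* its highest normalized signal was on *Cmah*-null replicate 3. In the raw signals replicate 3 was highest for *Slc13a4*, at 5900, 5350 and 7160 in *Cmah*-null mice, but lowest of its group for *Kl*. Of all genes detected on all arrays, 50.8% had replicate 3 above both other *Cmah*-null arrays. *Ptgds* (ILMN_1248316), the prostaglandin D2 synthase of the meninges and choroid plexus, was at 13.89, 13.86 and 13.70 in WT and at 14.29, 14.41 and 14.13 in *Cmah*-null mice. Its log2 difference was 0.46 (standard error 0.10), with no overlap and with *Cmah*-null replicate 3 lowest of its group.

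**Figure D1:**
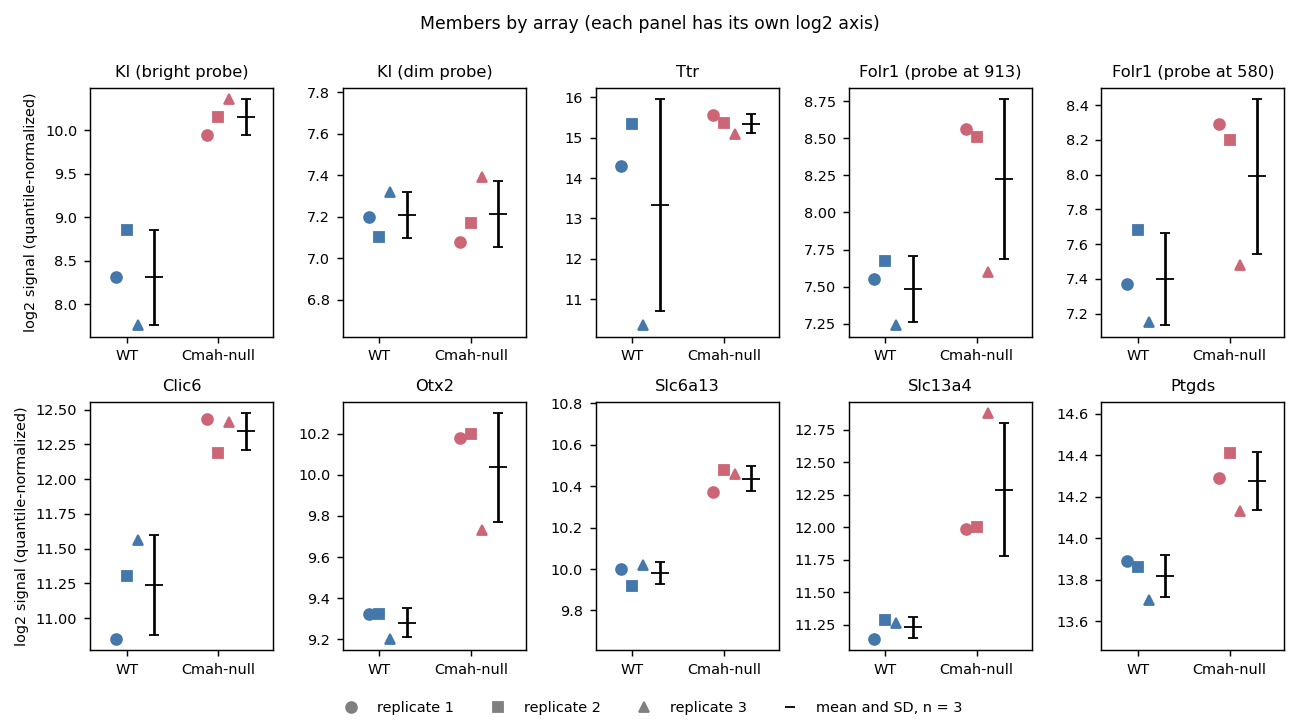
Quantile-normalized log2 signal of the 10 member probes on each array (circle, square and triangle for replicates 1, 2 and 3), with the mean and SD of 3 arrays per genotype, each panel on its own log2 axis. The genotypes do not overlap for the *Kl* probe at base 4429, *Clic6*, *Otx2*, *Slc6a13*, *Slc13a4* and *Ptgds*, while WT replicate 3 is far below the others for *Ttr* (10.36) and *Cmah*-null replicate 3 is within the WT range for *Folr1*.

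In 6 of the 10 member probes each *Cmah*-null array lay above each WT array, against 9.11% of all probes, and in 0 each lay below, against 7.33%. Past 1.5-fold with an unadjusted p under 0.05, the threshold of the study, limma placed 1.3% of all probes higher and 1.41% lower in *Cmah*-null mice. The members were picked with this contrast known, so nothing is read from their counts. The arrays also fell into a set with a median of 32 to 34 beads per probe (WT replicate 1, *Cmah*-null replicates 1 and 2) and a set with 38 or 39 (the other 3), and each set held both genotypes. Within them the log2 difference of *Kl* was 1.75 and 2.04, that of *Slc6a13* 0.43 and 0.49, and that of *Slc13a4* 0.85 and 1.61. That of *Ttr* was 1.17 and 2.24, of *Clic6* 1.46 and 0.98, of *Otx2* 0.87 and 0.47, and of *Ptgds* 0.45 and 0.36. For the *Folr1* probe at base 913 it was 0.98 and 0.14. The *Folr1* difference was thus small in the set that held *Cmah*-null replicate 3, and the part of the bead sets in it cannot be told apart from that replicate.

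To see whether other genes of the same tissues had these patterns, lists of markers without the members were taken, each gene by its brightest probe. The lists too were chosen with earlier results of these data known. Their counts are therefore a description and no independent check of the members. Genes were called at 1.5-fold with an unadjusted p under 0.05 in limma, with all probes in the fit. By this rule 1.61% of the 18138 genes were called higher and 1.46% lower in *Cmah*-null mice, and their median log2 difference was 0.01. At an adjusted p under 0.05 (Benjamini-Hochberg, limma) 0 of 25697 probes were called, where 2199 had an unadjusted p under 0.05. No listed gene therefore passed after adjustment, and the smallest adjusted p of any was 0.250.

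Of 20 choroid plexus genes 6 were called higher and 0 lower, with a median log2 difference of 0.47. Each of the 6 was higher on every *Cmah*-null array than on every WT array. In 2 of them *Cmah*-null replicates 1 and 2 were the highest arrays, as for *Folr1*, in 3 replicate 3 stood highest, as for *Kl*, and 1 was even within each genotype. Without WT replicate 2, 3 of the list were called. The median was 0.30 without *Cmah*-null replicate 1.

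Highest on *Cmah*-null replicates 1 and 2 were *Kcne2* and *Prlr*. *Kcne2*, a potassium channel subunit of the choroid plexus, was at 7.85, 8.23 and 7.65 in WT and at 9.46, 9.52 and 8.43 in *Cmah*-null mice, a log2 difference of 1.23 (standard error 0.33, adjusted p 0.463 in limma). *Prlr*, the prolactin receptor, was at 8.53, 8.78 and 8.50 in WT and at 9.98, 9.97 and 8.96 in *Cmah*-null mice, a log2 difference of 1.03 (standard error 0.30, adjusted p 0.483 in limma). This was its brightest probe. Another, detected on 2 arrays, had 0.30 with overlapping groups and was not called, and a further probe, detected on none, had 0.05. *Kcne2* and the brightest *Prlr* probe had the WT order of *Kl* and *Ttr*, replicate 2 above 1 above 3, which 9.27% of genes detected on all arrays had. That order was not particular to choroid plexus genes, with 3 of 13 on that list, 4 of 10 on the skeletal muscle list and 3 of 14 on the klotho and FGF23 list. *Ckm*, the creatine kinase of muscle, was at 14.21, 14.26 and 12.48 in WT. *Enpp2*, the enzyme autotaxin, had that order too, at 12.18, 12.77 and 11.27 in WT and 13.43, 13.59 and 11.76 in *Cmah*-null mice, but it was not called (log2 difference 0.85, standard error 0.61). On *Cmah*-null replicate 3 it was below WT replicates 1 and 2.

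Highest on *Cmah*-null replicate 3 were *Sostdc1*, *Trpv4* and *Lbp*. *Trpv4* is given by its brightest probe, and its other probes were detected on no array. *Sostdc1*, a secreted inhibitor of BMP and Wnt signals, was at 9.04, 9.10 and 9.09 in WT and at 9.92, 9.79 and 11.34 in *Cmah*-null mice, a log2 difference of 1.27 (standard error 0.42, adjusted p 0.535 in limma). *Trpv4*, a cation channel that responds to swelling, differed by 0.66 (standard error 0.22) and *Lbp*, which binds bacterial lipopolysaccharide, by 0.63 (standard error 0.25). All 3 lost the call without WT replicate 1 (1.25, 0.53 and 0.48) and without WT replicate 2 (1.28, 0.71 and 0.66). *Sostdc1* lost it also without WT replicate 3 (1.28), *Trpv4* and *Lbp* without *Cmah*-null replicate 3 (0.45 and 0.39), and *Lbp* without *Cmah*-null replicate 2 (0.71). Without *Cmah*-null replicate 3 *Sostdc1* had 0.78. *Rdh5*, a retinol dehydrogenase best known from the retinal pigment epithelium, was even within each genotype, at 9.47, 9.45 and 9.52 in WT and 10.20, 10.24 and 10.32 in *Cmah*-null mice (log2 difference 0.77, standard error 0.07, adjusted p 0.250 in limma).

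Other abundant choroid plexus genes did not pass the test. *Aqp1*, a water channel also present in cochlear fibrocytes and blood vessels, was at 13.35, 13.68 and 13.39 in WT and 13.28, 13.37 and 13.59 in *Cmah*-null mice, with a log2 difference of -0.06 (standard error 0.13). *1500015O10Rik*, which encodes a secreted peptide of this epithelium, had a log2 difference of 0.48 (standard error 0.44) with overlapping groups. Of the 13 choroid plexus genes detected on all arrays, *Cmah*-null replicate 3 was below both other *Cmah*-null arrays in 7 and above both in 6. Over all 9907 genes detected on all arrays these shares were 43.5% and 50.8%.

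Of 15 genes on the meninges list 1 was called higher and 0 lower, with a median log2 difference of 0.43. This was *Slc22a6*, an organic anion transporter of the meninges and kidney, at 8.98, 8.97 and 8.85 in WT and at 9.70, 9.69 and 10.54 in *Cmah*-null mice (log2 difference 1.04, standard error 0.24, adjusted p 0.418 in limma). It had nearly the profile of *Slc13a4*. Genes of meningeal fibroblasts that did not pass the test were also highest on *Cmah*-null replicate 3. *Foxc1*, a transcription factor of the developing meninges, was at 9.34, 8.96 and 9.42 in WT and at 9.30, 9.44 and 10.66 in *Cmah*-null mice. *Igf2*, a growth factor made by meninges and choroid plexus, was at 13.70, 13.83 and 13.65 in WT and 13.96, 13.87 and 14.88 in *Cmah*-null mice. The matrix proteoglycan genes *Lum* and *Ogn*, which many fibroblasts express, were lowest on that array, at 10.38 and 10.69, and a dimmer *Ogn* probe was called lower (log2 difference -0.62, adjusted p 0.579 in limma). The meningeal list was not uniform there, with 6 of the 11 genes detected on all arrays above both other *Cmah*-null arrays and 4 below both. Over all 9907 genes detected on all arrays these shares were 50.8% and 43.5%. Nothing particular to meningeal genes is read from this split. The median of the list was 0.18 without *Cmah*-null replicate 3.

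**Figure D2:**
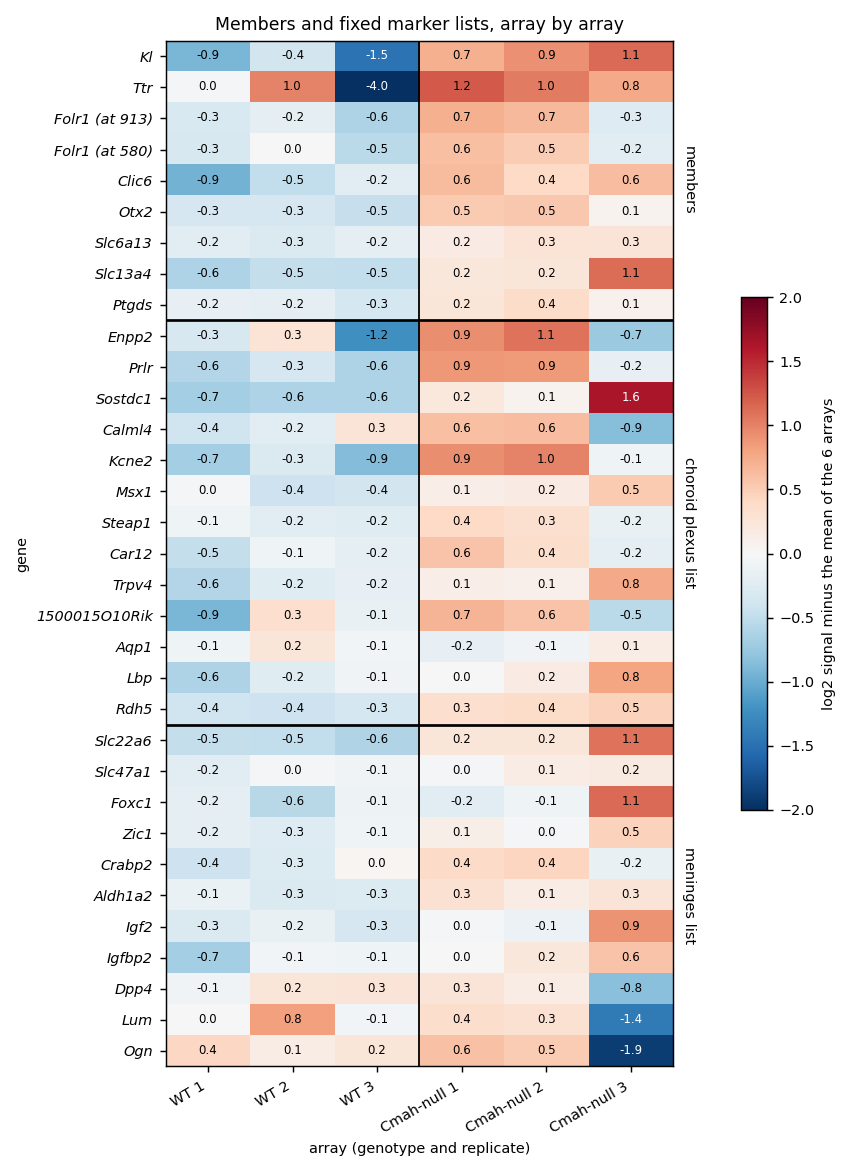
Log2 signal of each gene on each array minus its mean over the 6 arrays, for member probes detected on at least 1 array and for list genes detected on all 6; colours stop at 2 in either direction, and *Ttr* on WT replicate 3 goes beyond. *Kl* and *Slc13a4* are highest on *Cmah*-null replicate 3, whereas *Folr1*, *Enpp2*, *Prlr* and *Kcne2* are highest on *Cmah*-null replicates 1 and 2 and are near or below 0 on replicate 3.

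How closely other genes followed *Kl* was measured by the root mean square difference of log2 signals over the 6 arrays, each probe centred on its mean, among the 12409 other probes detected on all arrays. Of the members, *Slc13a4* was the closest at 0.54 (rank 11) and *Clic6* next at 0.59 (rank 36), then *Otx2* at 0.67 (rank 109). *Ptgds* had 0.76 and *Slc6a13* 0.78, and *Ttr* was the most distant at 1.25, against a median of 1.00 over all probes. The *Folr1* probes, not detected on all arrays, had 0.72 and 0.74. A gene that differs between genotypes by about as much as *Kl* scores well on this measure, which holds the contrast for which *Kl* was proposed.

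With the genotype means removed, the nearness of the members to *Kl* was lost. *Ptgds* had 0.33, *Slc6a13* 0.36, *Slc13a4* 0.37, *Otx2* 0.39 and *Clic6* 0.46, beside a median of 0.41 over all probes, and *Ttr* had 1.25. For the *Folr1* probes at bases 913 and 580, not detected on all arrays, it was 0.47 and 0.40. By this measure *Kl* was within genotypes about as far from the members as from a typical detected probe, and farther from *Ttr*. The measure counts the size of a swing as well as its direction. *Ttr* spanned 4.97 over the WT arrays and *Kl* 1.1, in the same order. The distance of *Ttr* therefore does not decide whether it moved with *Kl*, and an even gene can score near the median. The 2 genotypes of 3 arrays, with *Cmah*-null replicates 1 and 2 nearly alike, leave few independent points for any such comparison.

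The 5 genes most like *Kl* over the 6 arrays were no choroid plexus or meningeal markers. They were *Ifitm3* (0.41), an interferon-induced membrane protein, *Slfn1* (0.42), a growth regulator of lymphoid cells, *Fos* (0.43), an immediate early transcription factor, *Alox5ap* (0.45), a protein of leukotriene synthesis, and *Oasl2* (0.49), another interferon-induced gene. *Ifitm3* was at 13.09, 13.11 and 12.88 in WT and at 14.64, 14.58 and 14.19 in *Cmah*-null mice. *Fos* was at 9.71, 10.47 and 10.28 in WT and at 11.35, 11.30 and 11.89 in *Cmah*-null mice. *Fos* and *Alox5ap*, like *Kl*, were highest on *Cmah*-null replicate 3, and the other 3 were lowest there within their group. With genotype means removed, 0 of these 5 stayed among the 5 nearest.

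**Figure D3:**
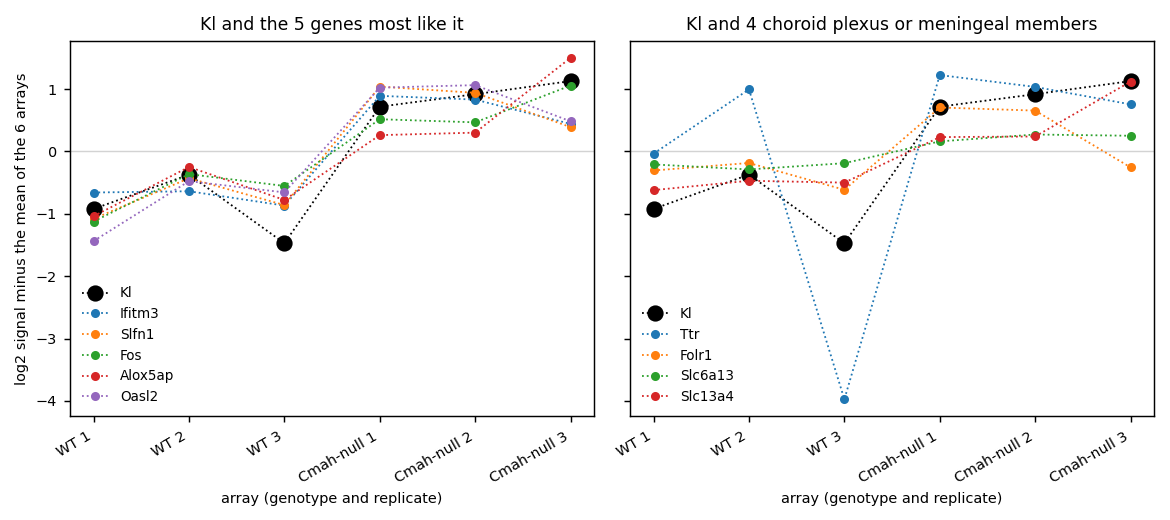
Log2 signal minus the mean of the 6 arrays for *Kl* (black) with the 5 genes most like it (left) and with *Ttr*, the *Folr1* probe at base 913, *Slc6a13* and *Slc13a4* (right), by array; dotted lines only join the points of a gene. On *Cmah*-null replicate 3 *Kl* and *Slc13a4* are at their highest and *Folr1* is near its WT level, and *Ttr* drops on WT replicate 3.

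The partners of klotho in FGF23 and mineral balance were taken as a list of 35 genes, 34 of them measured. In this list 1 was called higher and 1 lower, with a median log2 difference of 0.06. The gene called higher was *Vdr*, the vitamin D receptor, at 8.90, 9.60 and 9.59 in WT and at 10, 10.05 and 10.96 in *Cmah*-null mice by its brightest probe (log2 difference 0.97, standard error 0.33, adjusted p 0.545 in limma). Its other probes had 0.88 and 0.59. Without WT replicate 1 the value was 0.74 and the call was lost. The gene called lower was *Enpp1*, which makes the mineralization inhibitor pyrophosphate, at 9.43, 9.52 and 9.15 in WT and at 8.98, 9.04 and 8.29 in *Cmah*-null mice (log2 difference -0.60, standard error 0.23, adjusted p 0.571 in limma). Its call was lost without WT replicate 1 (-0.56), WT replicate 2 (-0.52) or *Cmah*-null replicate 3 (-0.36), with neqc normalization (-0.83) and with median scaling (-0.30), and a second probe had 0.01.

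The ligand *Fgf23* itself, the vitamin D hydroxylase *Cyp27b1*, the calcium-sensing receptor *Casr*, the kidney phosphate transporters *Slc34a1* and *Slc34a3* and the calcium channel *Trpv5* were detected on no array, as were 5 others of the list. *Fgfr1*, the main receptor partner of klotho, was detected on all arrays with a log2 difference of -0.01 (standard error 0.16). *Klb*, the relative of klotho that serves FGF21, was at 8.02, 7.79 and 8.82 in WT and at 8.07, 7.94 and 7.70 in *Cmah*-null mice. *Adam17* and *Bace1*, proteases that can cut cell-surface proteins, had log2 differences of -0.09 (standard error 0.11) and 0.01 (standard error 0.14). No other measured gene of this list was called beside *Vdr* and *Enpp1*.

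Markers of other tissues that a cochlear sample could hold were read alongside *Kl*. Of 12 genes of brain parenchyma 0 were called, with a median log2 difference of -0.10, which was 0.21 with scaling of the arrays to the same median and 0.05 without WT replicate 1. *Cbln1* and *Pcp2*, genes of cerebellar granule and Purkinje cells, were detected on all arrays at 13.83 to 14.24 and 12.62 to 14.06. The summed signal of the brain list was 35000 to 38300 in WT and 39500 to 43600 in *Cmah*-null mice, on the linear scale. That of the choroid plexus list was 20400 to 27900 in WT and 26600 to 34100 in *Cmah*-null mice, and that of the meninges list 35500 to 38500 and 40800 to 52300. The brain and meninges sums did not overlap between the genotypes, and those of the choroid plexus list did. Such sums are carried by the brightest probes, and 9 of the 12 brain genes were lower in *Cmah*-null mice. The bright *Pcp2* and *Gad1*, a gene of inhibitory neurons, each had a log2 difference of 0.58, and neither was called. *Pcp2* had overlapping groups and an unadjusted p of 0.0784 in limma. *Gad1* missed only the 1.5-fold cut, with no overlap and an unadjusted p of 0.00107 in limma (adjusted p 0.379). A second *Gad1* probe had a log2 difference of 0.52 (unadjusted p 0.00307, adjusted p 0.397 in limma). The part of these brain genes in the *Kl* result was not tested.

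The stria vascularis, the cochlear epithelium that makes endolymph, is another tissue in which klotho has been described. Of 14 of its genes 1 was called higher, the sodium pump subunit *Atp1b2*, at 12.77, 11.80 and 11.26 in WT and 13.02, 13.00 and 13.29 in *Cmah*-null mice (log2 difference 1.16, standard error 0.38, adjusted p 0.540 in limma). *Atp1b2* is also abundant in brain, and its call was lost when any array but WT replicate 1 was left out, with values of 0.82 to 1.21. *Dct*, of the pigment cells of the stria, was at 8.56, 10.10 and 10.62 in WT and at 9.66, 9.71 and 7.57 in *Cmah*-null mice. The list had a median log2 difference of 0.08, and that of the other cochlear genes was 0.10 with 0 of 15 called.

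Genes of muscle and brown fat, tissues that lie near the temporal bone, were also measured. Of 10 brown fat genes 6 were called lower, with a median log2 difference of -0.86, and *Ucp1*, the uncoupling protein of brown fat, was at 13.63, 12.48 and 11.79 in WT and at 10.82, 10.84 and 9.90 in *Cmah*-null mice. Without WT replicate 3, 3 brown fat genes were called, and with median scaling 2, with a median of -0.51. The list summed to 54900 to 88000 in WT and 15300 to 33600 in *Cmah*-null mice. Of 10 skeletal muscle genes 1, *Mb* (myoglobin), was called lower, with a median of -0.53, and sums of 246000 to 385000 in WT and 250000 to 252000 in *Cmah*-null mice. Without WT replicate 3, 5 muscle genes were called, without *Cmah*-null replicate 3, 3, and with median scaling 0. The median was -0.93 without WT replicate 3, -0.33 without WT replicate 1, -0.30 without WT replicate 2 and -0.11 with median scaling. All 10 muscle genes were detected on all arrays, and their part in the values of *Kl* was not tested.

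**Figure D4:**
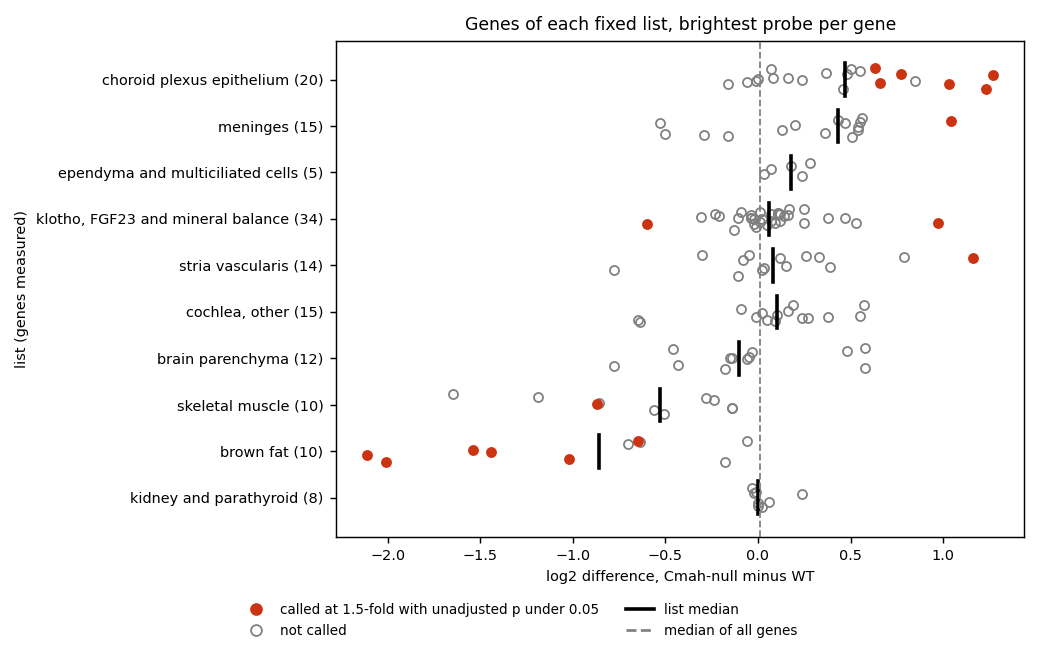
Log2 difference, *Cmah*-null minus WT, of each gene on the 10 lists by its brightest probe; filled points were called at 1.5-fold with an unadjusted p under 0.05, black bars are list medians and the dashed line is the median of all genes (0.01). The choroid plexus list has 6 called points, all higher, the klotho and FGF23 list has 1 in each direction, and the brown fat list has 6, all lower.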

How the data were processed

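Cochlear RNA of 3 WT and 3 *Cmah*-null samples was hybridized to Illumina MouseRef-8 v2 arrays. The authors deposited raw intensity values (average bead signal, with bead standard error and bead number, neither normalized nor background-subtracted) and a detection p-value for each probe. The authors also deposited log2 values, which equalled quantile-normalized log2 raw signals to within 5e-07. Without background subtraction, differences of dim probes are compressed. That table names the second group "old", and its columns were matched to the *Cmah*-null samples by number. Its fold changes and LPE statistics, the authors' own comparison, and 12 columns that repeat raw values were not used. Software versions of the scanner are not given in the sources used here.

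The log2 values of all probes were compared with limma 3.58.1 in R 4.3.3 (two-sided, no covariate, Benjamini-Hochberg over all probes), a method checked on simulated data. Members and gene lists were chosen with earlier results of these data known. Genes were named if they were members, if they were called in a list and detected on all arrays of a genotype (up to 6 per list), if they were defining genes near background, or if they were among the 5 most like *Kl*. Other list genes were named after their values were seen (*Enpp2*, *1500015O10Rik*, *Aqp1*, *Foxc1*, *Igf2*, *Lum*, *Ogn*, *Fgfr1*, *Klb*, *Adam17*, *Bace1*, *Dct*, *Coch*, *Otof*, *Myo7a*, *Cbln1*, *Pcp2*, *Gad1*, *Ckm*, *Foxj1*, *Slc12a3*, *Dynlrb2* and *Rsph1*). List symbols absent from the array were sought by gene ID, which matched *Tmem72*, *Enkur*, *Fam20c* and *Pth1r*. Replicate numbers did not pair the samples and were used as a block only in an alternative. The alternatives were neqc normalization (offset 16), median scaling, a detection filter, leaving out each array, averaging *Cmah*-null replicates 1 and 2, another probe per gene and, added later, a block for beads per probe. The number of arrays limits the precision. Figures were drawn with matplotlib 3.10.9.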

Additional observations from a re-analysis of the deposited data

How the results depend on the processing

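The log2 difference of the detected *Kl* probe stayed above 0 in all 12 alternatives, at 2.55 with neqc normalization and from 1.57 to 2.12 when 1 array was left out. Those of the other members, the dim *Kl* probe aside (-0.13 to 0.07), stayed above 0 too, *Ttr* between 0.53 and 3.01 and the *Folr1* probes up to 1.57 and 1.34 with neqc. Median scaling moved the median of probes detected on all arrays from 0.03 to 0.30 and made 96.8% of called probes higher, where quantile normalization gave 47.9%. Member differences were then 0.87 for *Slc6a13*, 0.91 for *Ptgds*, 1.10 for *Otx2*, 1.58 for *Slc13a4* and 1.61 for *Clic6*.

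Counts at 1.5-fold with an unadjusted p under 0.05 moved more. None of the called list genes named here changed direction. Over all probes 697 were called, 1482 with neqc, 2488 with median scaling, 1728 with a block for beads per probe (an alternative chosen after seeing the data, with 3 probes at an adjusted p under 0.05 in limma), and from 429 (without WT replicate 2) to 1037 (without WT replicate 3) when 1 array was left out. With neqc the counts were 2 for meninges, 3 for stria vascularis, 1 for other cochlear genes and 1 for brain. With median scaling they were 6 for meninges, 1 for the klotho list, 3 for stria vascularis, 2 for other cochlear genes, 3 for brain, 0 for muscle, 2 for brown fat and 1 for kidney and parathyroid. With the bead block they were 4 for meninges, 4 for the klotho list, 2 for stria vascularis, 1 for other cochlear genes, 3 for brain and 3 for muscle. With *Cmah*-null replicates 1 and 2 averaged the stria count was 0 and the choroid plexus median 0.34. Leaving out 1 array gave 3 to 7 for choroid plexus, 1 to 2 for meninges, 0 to 2 for the klotho list, 0 to 1 for stria vascularis, 0 to 2 for other cochlear genes, 0 to 2 for brain, 1 to 5 for muscle and 3 to 6 for brown fat. The cause was not tested.

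With the replicate number as a block 811 probes were called, 2 stria genes and 2 muscle genes. Deviations of same-numbered arrays from their group means correlated at 0.0223, -0.17 and 0.0131, and 0 of 3 pairs correlated best with their own number, so the numbers were not taken as a pairing.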

Other observations

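Most marker genes of kidney and parathyroid, other tissues known for *Kl*, were at or near background, but *Slc12a3* was not. Of 8 genes of kidney and parathyroid, 5 were detected on no array, among them *Umod*, of the thick ascending limb, *Gcm2* and *Pth*, of the parathyroid. *Slc12a3*, the thiazide-sensitive cotransporter, was detected on all arrays by its brightest probe, at 9.55, 9.89 and 9.67 in WT and 9.69, 9.51 and 10.63 in *Cmah*-null mice, while its other probes were detected on none. None of the 8 was called. Of 5 measured genes of ependyma and other ciliated cells 0 were called. *Dynlrb2*, a dynein light chain of motile cilia, was at 11.03, 11.45 and 12.44 in WT and at 12.43, 12.35 and 10.22 in *Cmah*-null mice, and *Rsph1*, of the ciliary radial spoke, at 11.15, 11.56 and 12.11 in WT and 12.14, 12.14 and 11.25 in *Cmah*-null mice. Both genes, named after their values were seen, were lowest within *Cmah*-null mice on replicate 3 and highest within WT on replicate 3. *Foxj1*, a transcription factor of ciliated cells, did not share this, at 7.63, 7.52 and 7.54 in WT and 7.72, 7.65 and 8.16 in *Cmah*-null mice.

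The genes nearest to *Kl* with genotype means removed were *Ncapd2*, *1700113I22Rik*, *Btk*, *Foxn3* and *Ptprv*, with root mean square differences of 0.07 to 0.10. *Ncapd2*, a subunit of condensin, was at 9.90, 10.27 and 9.21 in WT and at 9.64, 9.72 and 9.95 in *Cmah*-null mice, a log2 difference of -0.02 (standard error 0.27). In each of the 5 the *Cmah*-null mean was below the WT mean.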
